A study of Mus musculus with 16 samples.

Results

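Expression of 7 macrophage genes was followed across 4 genotypes in whole tibialis anterior muscle: Adgre1, Csf1r, Mpeg1, Lyz2, Ms4a7, Mrc1 and Msr1. They were chosen by symbol as genes of macrophage identity and uptake, with Mrc1 set against the other 6, and all 7 were found among the 831 genes of the deposited table. RNA was sequenced in 16 libraries from mice at postnatal day 30, 4 in each of 4 groups. The mdx/miR-133b-/- mice carried both the mdx change and the loss of miR-133b, the mdx mice the mdx change alone, and the miR-133b-/- mice the microRNA loss alone, and the Control mice were wild type. In mdx mice all cells carry a mutated Dmd, so that muscle fibres lack dystrophin, the protein missing in Duchenne muscular dystrophy. The microRNA miR-133b is made mainly in muscle. The labels give neither strain nor sex, and do not state whether each library is a different animal.

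Macrophages enter damaged muscle as monocytes, clear dead fibres, and then release factors that act on satellite cells and matrix-producing cells. In dystrophic muscle, where fibres break down again and again, they persist beside regenerating fibres. Some macrophages also reside in healthy muscle, mainly in the connective tissue between fibres, and these resident cells are known for high Mrc1. Adgre1 encodes the adhesion receptor known as the F4/80 antigen, and Csf1r the receptor for the growth factor CSF1, on which macrophage survival depends. Mpeg1 encodes perforin-2, a pore-forming protein that acts on engulfed bacteria, and Lyz2 encodes lysozyme M, which cuts bacterial cell walls. Ms4a7 encodes a membrane protein of the MS4A family. Msr1 and Mrc1 encode uptake receptors, the class A scavenger receptor for modified lipoproteins and the mannose receptor CD206 for glycoproteins and collagen fragments.

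Promoter windows are shown for Mrc1, the member set against the rest, and for Ms4a7 and Mpeg1, the members with the largest increases in mdx. Each holds 250 bases before and 50 after a transcript start, from RefSeq on GRCm38.p6, written along the gene's strand. Windows were available for 4 of the 7 members. Capitals mark matches, on either strand, to GAGGAA, a core bound by the macrophage factor PU.1. The Mrc1 window is chr2:14229164-14229463 on the plus strand, the Ms4a7 window chr19:11336097-11336396 on the minus strand, and the Mpeg1 window chr19:12460520-12460819 on the plus strand.
Mrc1: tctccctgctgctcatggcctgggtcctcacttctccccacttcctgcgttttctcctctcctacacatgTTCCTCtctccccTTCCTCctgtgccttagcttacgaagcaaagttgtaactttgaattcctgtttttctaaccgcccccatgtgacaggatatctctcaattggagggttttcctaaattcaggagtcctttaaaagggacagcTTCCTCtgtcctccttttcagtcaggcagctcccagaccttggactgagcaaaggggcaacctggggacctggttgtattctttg
Ms4a7: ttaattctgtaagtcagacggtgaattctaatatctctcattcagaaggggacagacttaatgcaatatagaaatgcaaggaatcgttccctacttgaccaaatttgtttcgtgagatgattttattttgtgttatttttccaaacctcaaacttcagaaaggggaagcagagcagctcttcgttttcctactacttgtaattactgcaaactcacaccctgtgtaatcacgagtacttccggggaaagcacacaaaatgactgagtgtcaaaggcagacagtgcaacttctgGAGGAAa
Mpeg1: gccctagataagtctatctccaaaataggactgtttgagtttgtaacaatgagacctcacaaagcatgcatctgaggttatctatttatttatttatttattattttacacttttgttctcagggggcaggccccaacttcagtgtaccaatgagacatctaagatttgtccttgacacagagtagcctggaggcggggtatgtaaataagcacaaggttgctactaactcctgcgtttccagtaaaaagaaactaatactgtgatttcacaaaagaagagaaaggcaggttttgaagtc
The Mrc1 window held 3 matches, all on the strand opposite to the gene (TTCCTC as printed), starting 180, 167 and 35 bases before the transcript start. The Ms4a7 window held 1 match on the gene's own strand, 43 bases after the start, and the Mpeg1 window held none. Of 32851 windows in the table, 28.3% held at least 1 match. Neither TTGCNNAA, a C/EBP motif present in 10.8% of windows, nor TGANTCA, an AP-1 motif present in 7.81%, was found in these 3 windows. A second Ms4a7 window, for a start inside the gene, held 1 TGANTCA match, and the Lyz2 window held none of the 3 motifs.

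The microRNA that was removed is shown because its seed can be looked for in the members. The mature strand is encoded at chr1:20682834-20682855 on the plus strand (RefSeq, GRCm38.p6), and capitals mark the seed, bases 2 to 8.
mmu-miR-133b-3p: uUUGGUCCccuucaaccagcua
Msr1, match in the 3' UTR: ggttgttgtggGGACCAAaatatgtgtga
The reverse complement of the seed, GGACCAA in DNA letters, occurs in a 3' UTR annotated by GENCODE M21 in 72 of 779 genes of the table with one (9.24%). It occurs in 2 of the 7 members, Csf1r and Msr1, once in each. The Msr1 site is printed with its neighbouring bases and the match in capitals, and it begins at base 1377 of a 3' UTR of 2518 bases. Mrc1, Adgre1, Mpeg1, Lyz2 and Ms4a7 had no match.

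Values are given as scaled reads, whole counts multiplied by a factor of each library. Reads in the listed genes numbered 2356990 to 6000033 per library. The skeletal muscle genes Ckm and Actn3 were at 50387 to 135826 and at 25765 to 92213 scaled reads over the 16 libraries. Libraries were placed by the code in each title, which is also the name of the table's column, but the description field names another sample's code for 14 of the 16. When columns were assigned by that field, 0 of the 7 members passed the test in any comparison. Every listed gene differed between the mdx/miR-133b-/- and miR-133b-/- means by at least 1.72-fold, so the table is a selection, and mdx against Control is the comparison that uses neither of those groups. The lowest mean of a listed gene over the 16 libraries was 50.1 scaled reads, so a floor on the mean may also have been used. Ms4a7 and Msr1 averaged less than that in both Control and miR-133b-/-. So did Itgax, Clec7a, C1qa, C1qc, Cx3cr1, Siglec1, Cd300lb, Cxcl16, Ms4a4a, Ms4a6b and Ms4a6c, named below. They were above it through the groups with mdx, and the size and rank of their rises would be partly set by such a floor. The genes altered in the mutants, Dmd and the miR-133b locus, were not analysed here, so genotypes were not checked against expression. In whole muscle, more macrophages and more RNA per macrophage cannot be told apart.

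On GRCm38 as annotated in GENCODE M21, the 7 protein-coding members lie on 6 chromosomes, and counts were made per gene, not per exon. Adgre1 spans chromosome 17, 57358691 to 57483527, Csf1r chromosome 18, 61100598 to 61132149, and Lyz2 chromosome 10, 117277331 to 117282321. Mrc1 spans chromosome 2, 14229392 to 14332057, and Msr1 chromosome 8, 39581685 to 39642673. Ms4a7 (11321039 to 11336146) and Mpeg1 (12460779 to 12465283) lie on chromosome 19, with 1124633 bases between them.

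In mdx against Control, the question was how macrophage genes differ with dystrophin loss. Of the 7 members, 6 were higher in mdx, by 4.56-fold for Csf1r to 17.1-fold for Ms4a7, and Mrc1 did not pass the test. Changes were fitted with limma on log2(scaled reads + 1) over all 831 genes, and adjusted p-values use the Benjamini-Hochberg method at a threshold of 0.05. The background was high, since 66.2% of the 831 genes passed in this comparison and 44.5% passed as higher in mdx.

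Among the identity receptors, Adgre1 had 261, 327, 327 and 268 scaled reads in the mdx libraries, against 67.2, 70.1, 38.02 and 38.1 in Control. Every mdx library lay above every Control library, and the rise was 2.50 on the log2 scale (SE 0.36, adjusted p = 4.0e-05). Csf1r had 462, 448, 554 and 397 scaled reads in mdx, against 110.0, 116, 96.5 and 82.8 in Control. Its groups were also apart, with a rise of 2.19 (SE 0.35, adjusted p = 7.8e-05). In all, 6 of the 7 members had mdx values that did not overlap Control and were higher, as had 46.2% of all listed genes.

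The effector genes Mpeg1 and Lyz2 had the highest levels per kilobase in mdx. Mpeg1 had 824, 1007, 1173 and 777 scaled reads in mdx, against 207, 81.5, 45.3 and 45.5 in Control. The first Control library had the highest Mpeg1 of its group and was still below all 4 mdx libraries. The rise in Mpeg1 was 3.58 (SE 0.53, adjusted p = 4.9e-05), or 11.97-fold. Lyz2 had 3315, 4035, 5546 and 3575 scaled reads in mdx, against 1165, 669, 444 and 611 in Control, a rise of 2.57 (SE 0.40, adjusted p = 7.0e-05). Reads of Lyz2 and of its near-identical neighbour Lyz1, which was not analysed here, may have been split or shared in counting, so the level of Lyz2 is uncertain.

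Ms4a7 was low in Control, down to 3 unscaled reads in 1 library, and had the largest change of the 7. It had 142, 205, 180 and 134 scaled reads in mdx, against 20.01, 10.7, 9.5 and 2.2 in Control. The rise was 4.10 on the log2 scale (SE 0.58, adjusted p = 3.7e-05), the fifth highest of the 831 genes, and its 95% interval ran from 7.41-fold to 39.6-fold. The fold of so low a gene depends on the added constant, and it was 3.14 on the log2 scale with 10 added in place of 1. The Ms4a family members listed near Ms4a7 on chromosome 19, of which Ms4a4a and Ms4a6b were picked after their values were seen, were also higher in mdx. The rises were 2.31 for Ms4a4a (adjusted p = 0.0169), 1.91 for Ms4a6c (adjusted p = 0.000627) and 1.695 for Ms4a6b (adjusted p = 0.000475). Among all listed genes, 44.5% were called as higher in mdx. Ms4a4a, Ms4a6c and Ms4a6b each averaged under 50.1 scaled reads in both Control and miR-133b-/-. A floor on the mean would partly set their rises, which describe these listed genes alone.

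The uptake receptors parted. Msr1 had 59.9, 89.3, 112 and 99.9 scaled reads in mdx, against 21.4, 17.1, 13.9 and 9.7 in Control. Its groups did not overlap, and it rose by 2.48 (SE 0.49, adjusted p = 0.0004). Mrc1 had 621, 688, 755 and 726 scaled reads in mdx, against 367, 631, 691 and 581 in Control. Control 2 and Control 3 lay within the mdx range, Control 1 and Control 4 below it, and the groups overlapped. The Mrc1 difference was 0.33 (SE 0.25, adjusted p = 0.234), and its 95% interval ran from 0.879-fold to 1.803-fold. The choice of scaling factors mattered to this gene: with relative log expression factors the difference was -0.02 (adjusted p = 0.936), and the median over all listed genes moved to 0.09 from 0.44 with the authors' factors. Under those factors the other 6 members still passed, with rises of 1.84 to 3.76.

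**Figure D1:**
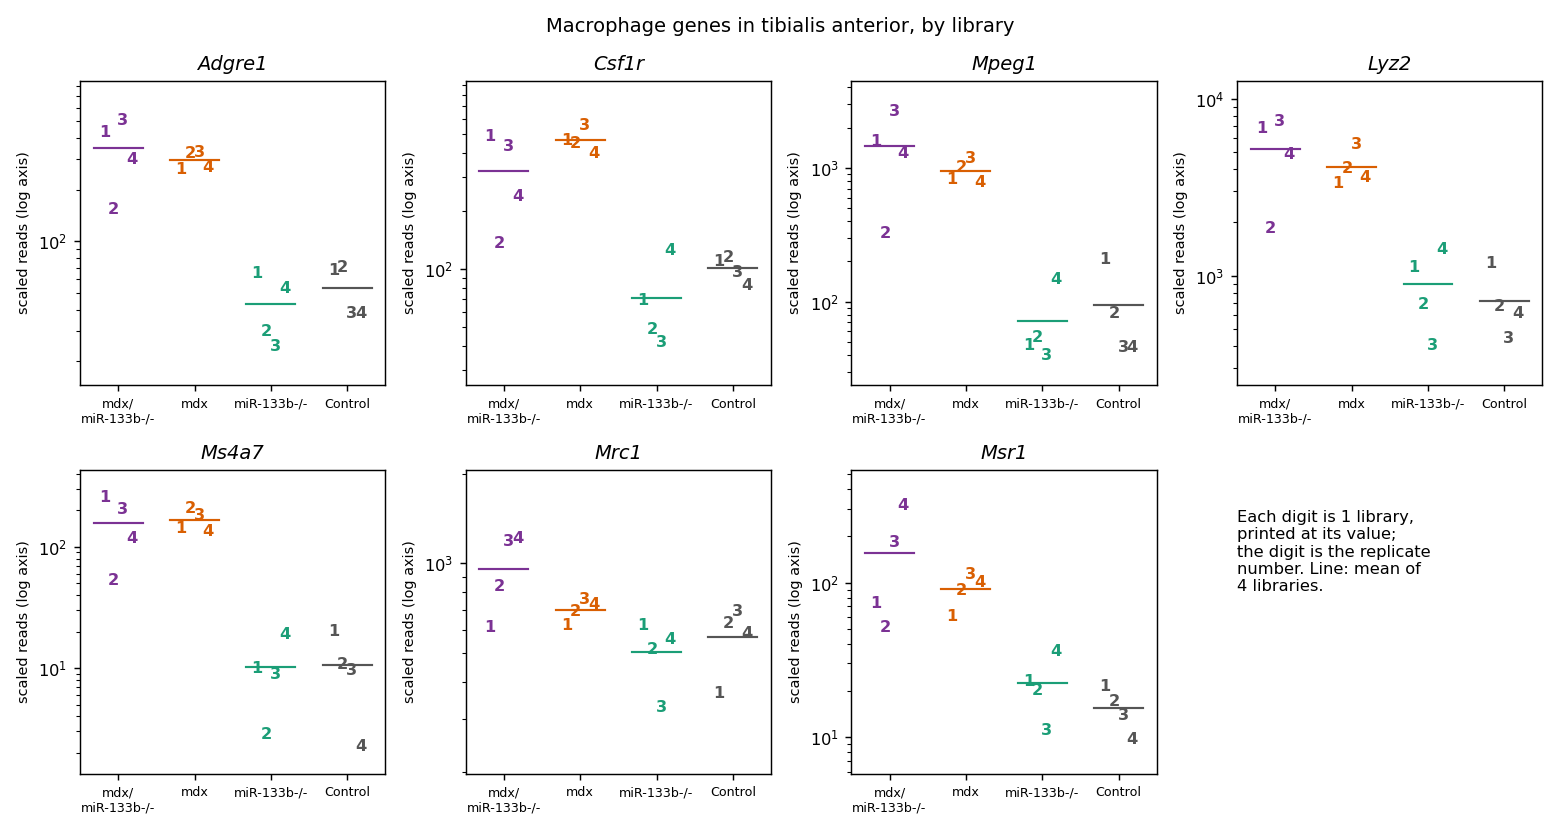
Scaled reads (log axis) of the 7 members in each library of mdx/miR-133b-/-, mdx, miR-133b-/- and Control muscle; each digit is 1 library at its value, the digit being the replicate number, and lines are means of 4. The mdx libraries lie above Control for every member but Mrc1, and mdx/miR-133b-/- 2 is the lowest of its group for every member but Mrc1.

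Ranked by the log2 change in mdx, Ms4a7 was at place 5, Mpeg1 12, Lyz2 39, Adgre1 43, Msr1 47 and Csf1r 76 of the 831 genes, and Mrc1 was at place 446. The median change was 2.54 over the 6 members other than Mrc1, against 0.44 over all listed genes. The places and the median hold within a selected table, where a floor on the mean would partly set the rises of Ms4a7 and Msr1.

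**Figure D2:**
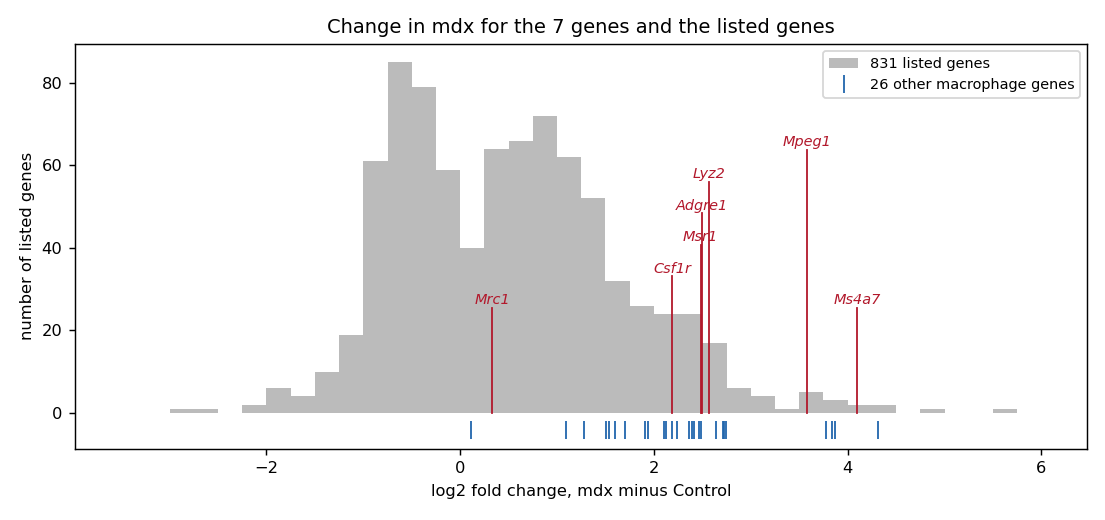
Distribution of the log2 fold change, mdx minus Control, over the 831 listed genes (grey bars), with the 7 members as red lines and 26 other macrophage genes as blue ticks. The members other than Mrc1 lie between 2.19 and 4.10 in the upper part of the distribution, and Mrc1, at 0.33, lies near the median of all genes.

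Levels between genes were compared per kilobase of the longest protein-coding transcript. In mdx muscle the order of mean scaled reads per kilobase was Lyz2 (3129 ± 758), Mpeg1 (218 ± 41.9), Mrc1 (130 ± 10.8), Ms4a7 (105 ± 20.97), Csf1r (99.0 ± 13.9), Adgre1 (91.3 ± 11.1) and Msr1 (24.8 ± 6.12; SD, n = 4 each). Ms4a7 and Csf1r differed by less than either SD, as did Csf1r and Adgre1. In Control muscle the order was Lyz2 (549 ± 236), Mrc1 (106 ± 26.2), Mpeg1 (21.9 ± 17.7), Csf1r (21.5 ± 3.12), Adgre1 (16.5 ± 5.47), Ms4a7 (6.74 ± 4.63) and Msr1 (4.27 ± 1.36; SD, n = 4 each). Mrc1 was thus the second of the 7 in Control and the third in mdx, and in Control the means of Mpeg1, Csf1r and Adgre1 differed by less than the larger SD of each pair, as did those of Ms4a7 and Msr1.

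A ratio of 2 genes in the same library does not depend on the scaling factor. Adgre1 over Mrc1 was 0.369 to 0.475 in the mdx libraries and 0.0550 to 0.183 in the Control libraries. Mpeg1 over Mrc1 was 1.07 to 1.55 in mdx and 0.0656 to 0.564 in Control, and Csf1r over Mrc1 was 0.546 to 0.745 in mdx and 0.140 to 0.300 in Control. For Lyz2 the ratio was 4.92 to 7.35 in mdx and 0.642 to 3.17 in Control. For Ms4a7 it was 0.185 to 0.298 in mdx and 0.00386 to 0.0545 in Control, and for Msr1 it was 0.0966 to 0.148 in mdx and 0.0167 to 0.0584 in Control. Every mdx library had a higher ratio to Mrc1 than every Control library for all 6 genes. Mrc1 was set against the other 6 with results known. The share of all listed genes whose ratio to Mrc1 parts the groups in this way was not counted, while 46.2% had mdx values wholly above Control. The highest Control ratio came from Control 1 for each of the 6, the library with the lowest Mrc1 of its group and the highest Mpeg1, Lyz2, Ms4a7 and Msr1.

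**Figure D3:**
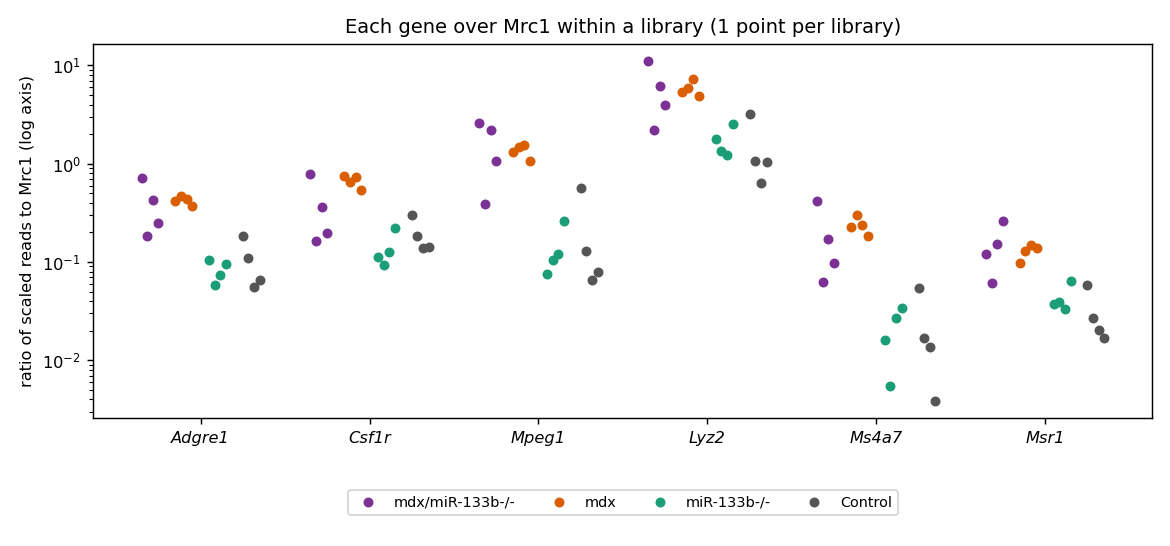
Ratio of the scaled reads of 6 members to those of Mrc1 in the same library (log axis), 1 point per library, with mdx/miR-133b-/-, mdx, miR-133b-/- and Control from left to right in each gene. The mdx points stand above the Control points for every gene, and the mdx/miR-133b-/- points spread widely, for Lyz2 between 2.21 and 11.1.

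Of a list of 54 other macrophage genes, 26 were in the table, and 25 of these rose in mdx, with a median log2 change of 2.30 over the 26. Of all listed genes, 44.5% were called as higher. The table had left out genes with little difference between mdx/miR-133b-/- and miR-133b-/-, so the count describes the listed genes alone. Many of the 26, among them Itgax, Clec7a, C1qa, C1qc, Cx3cr1 and Siglec1, averaged under 50.1 scaled reads in both Control and miR-133b-/-. A floor on the mean would partly set their rises, the count and the median. Itgax, the integrin chain CD11c, rose by 4.31 (adjusted p = 0.0002), Clec7a, the receptor for fungal beta-glucan, by 3.87 (adjusted p = 0.000106) and Ctss, the protease cathepsin S, by 3.84 (adjusted p = 6.6e-05). Ccr2, the chemokine receptor of recruited monocytes, rose by 2.71 (adjusted p = 0.000307), and Cx3cr1, the fractalkine receptor, by 1.28 (adjusted p = 0.000897). The complement chains C1qa, C1qb and C1qc rose by 2.49, 2.24 and 2.47. Siglec1, the sialic acid receptor CD169, rose by 2.19 (adjusted p = 0.00146) and Axl, a receptor kinase for apoptotic cells, by 1.09 (adjusted p = 9.2e-05). Lyn, a Src-family kinase, was the exception, at 0.11 (adjusted p = 0.654).

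Other uptake and resident-type genes gave few listed members, in a table where 44.5% of genes were called as higher in mdx. Of 27 scavenger and uptake receptors beyond Msr1 and Mrc1, 3 were in the table and all 3 rose: Cd300lb by 2.20 (adjusted p = 0.00419), Cxcl16, a membrane-bound chemokine that also takes up oxidised lipoprotein, by 1.85 (adjusted p = 0.00127), and Colec12, a collectin scavenger receptor, by 0.54 (adjusted p = 0.0317). Cd300lb and Cxcl16 averaged under 50.1 scaled reads in both Control and miR-133b-/-, so a floor on the mean would partly set their rises. Of 22 genes of resident-type macrophages, F13a1 alone was in the table. F13a1, the A chain of clotting factor XIII, averaged 325 ± 53.9 scaled reads in mdx and 204 ± 35.3 in Control (SD, n = 4 each), a rise of 0.67 (SE 0.27, adjusted p = 0.0377). With relative log expression factors Mrc1 moved from 0.33 to -0.02 and the median over all listed genes from 0.44 to 0.09. The small rises of Colec12 and F13a1 may therefore depend on the authors' factors, and their values with other factors are not given here.

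Markers of other cells moved in the same comparison, where 44.5% of all listed genes were called as higher, and their part in the result was not tested. The summed level of the 26 macrophage genes was 6161 to 8449 scaled reads in mdx and 1864 to 2473 in Control. Regenerating fibre genes, 6 of 8 in the table, summed to 1659 to 6043 in mdx and 203 to 304 in Control, and all 6 rose. Fibro-adipogenic genes, 3 of 8, summed to 2544 to 3182 in mdx and 1073 to 1867 in Control, and all 3 rose. Flt1, the single listed gene of 9 endothelial markers, fell to 856 to 1301 in mdx, against 1687 to 2039 in Control (adjusted p = 0.00241). Ighm, the single listed gene of 7 B cell markers, was at 102 to 312 in mdx and 184 to 1230 in Control (adjusted p = 0.0763). Neutrophil, dendritic, T and NK, mast, lymphatic, satellite and red cell markers were not analysed here, as none of them was listed. Lyz2 is also expressed in neutrophils, so its source cannot be told apart on these data.

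Loss of miR-133b where dystrophin is present was read in miR-133b-/- against Control, which shares its miR-133b-/- libraries with the table's selection. None of the 7 members passed, 0 of the 831 listed genes did (0% of the table), and limma-voom on the recovered reads also gave 0 of 831. At an unadjusted p under 0.05 the count was 0 of the 7 members and 84 of the 831 genes. Csf1r had 69, 48.5, 41.9 and 125 scaled reads in miR-133b-/-, against 110.0, 116, 96.5 and 82.8 in Control. All miR-133b-/- libraries but the fourth were below every Control library, and the fourth was above them all, and the difference was -0.63 (adjusted p = 0.563), with a 95% interval of 0.390-fold to 1.08-fold. Msr1 had 23, 19.99, 11.04 and 36.0 scaled reads in miR-133b-/-, against 21.4, 17.1, 13.9 and 9.7 in Control, a difference of 0.45 (95% interval 0.673-fold to 2.77-fold).

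The other members also overlapped between these groups. Adgre1 averaged 43.1 ± 19.2 scaled reads in miR-133b-/- and 53.3 ± 17.7 in Control, and Mpeg1 averaged 71.4 ± 49.7 in miR-133b-/- and 94.9 ± 76.8 in Control. Lyz2 averaged 903 ± 446 in miR-133b-/- and 722 ± 310 in Control, and Ms4a7 10.2 ± 6.64 in miR-133b-/- and 10.6 ± 7.29 in Control. Mrc1 averaged 505 ± 124 in miR-133b-/- and 568 ± 141 in Control (SD, n = 4 each), with a 95% interval of 0.622-fold to 1.27-fold. The intervals of Ms4a7 (0.432-fold to 2.31-fold) and Mpeg1 (0.372-fold to 1.75-fold) leave room for sizeable differences either way at this number of libraries. Of the 26 other macrophage genes none passed, and their median was -0.09.

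Loss of miR-133b in dystrophic muscle was read in mdx/miR-133b-/- against mdx. No member passed, where 19.5% of the listed genes did, and at an unadjusted p under 0.05 or with limma-voom the count of members was also 0. The comparison shares its mdx/miR-133b-/- libraries with the table's selection, which bears on the share of 19.5%. The mdx/miR-133b-/- libraries differed from each other more than the mdx libraries did. Adgre1 had 432, 152, 504 and 301 scaled reads in mdx/miR-133b-/-, against 261, 327, 327 and 268 in mdx. Csf1r had 484, 135, 433 and 238 in mdx/miR-133b-/-, against 462, 448, 554 and 397 in mdx. The difference in Csf1r, -0.69 (SE 0.35, adjusted p = 0.185, 95% interval 0.374-fold to 1.03-fold), was the largest downward one among the 7. In Adgre1 it was 0.11, with an interval of 0.641-fold to 1.804-fold.

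Among the effector genes, Mpeg1 had 1573, 324, 2618 and 1281 scaled reads in mdx/miR-133b-/-, against 824, 1007, 1173 and 777 in mdx. All mdx/miR-133b-/- libraries but the second were above every mdx library, and the second was below every one. Lyz2 had 6771, 1842, 7410 and 4834 in mdx/miR-133b-/-, against 3315, 4035, 5546 and 3575 in mdx, and Ms4a7 had 254, 52.3, 202 and 117 in mdx/miR-133b-/-, against 142, 205, 180 and 134 in mdx. The differences were 0.29 for Mpeg1, 0.19 for Lyz2 and -0.29 for Ms4a7, each smaller than its SE.

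The uptake receptors followed another order of libraries. Msr1 had 72.9, 51.02, 183 and 315 scaled reads in mdx/miR-133b-/-, against 59.9, 89.3, 112 and 99.9 in mdx, a difference of 0.46 (SE 0.49). Mrc1 had 610, 835, 1187 and 1212 scaled reads in mdx/miR-133b-/-, against 621, 688, 755 and 726 in mdx. All mdx/miR-133b-/- libraries but the first exceeded every mdx library in Mrc1, and the first was below them all. The difference was 0.41 (SE 0.25, adjusted p = 0.269, 95% interval 0.928-fold to 1.90-fold).

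The second mdx/miR-133b-/- library was the lowest of its group for 6 of the 7 members, and Mrc1 was the exception, lowest in the first. Without that library the differences from mdx were 0.45 for Adgre1, -0.33 for Csf1r, 0.90 for Mpeg1, 0.63 for Lyz2, 0.16 for Ms4a7, 0.87 for Msr1 and 0.46 for Mrc1, and none passed. Its summed level of the 26 other macrophage genes, 4098 scaled reads, was also the lowest of the mdx/miR-133b-/- range of 4098 to 12938, against 6161 to 8449 in mdx. The highest over the lowest mdx/miR-133b-/- library was 3.31 for Adgre1 to 8.08 for Mpeg1 among the 6, and 1.99 for Mrc1, against 1.25 to 1.87 among the 6 and 1.22 for Mrc1 in mdx. The SD of the log2 values had a median over the 7 members of 0.92 in mdx/miR-133b-/- and 0.27 in mdx, and over all genes of 0.38 in mdx/miR-133b-/- and 0.21 in mdx. Csf1r and Ms4a7 were highest in the first library, Adgre1, Mpeg1 and Lyz2 in the third, and Msr1 and Mrc1 in the fourth.

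**Figure D4:**
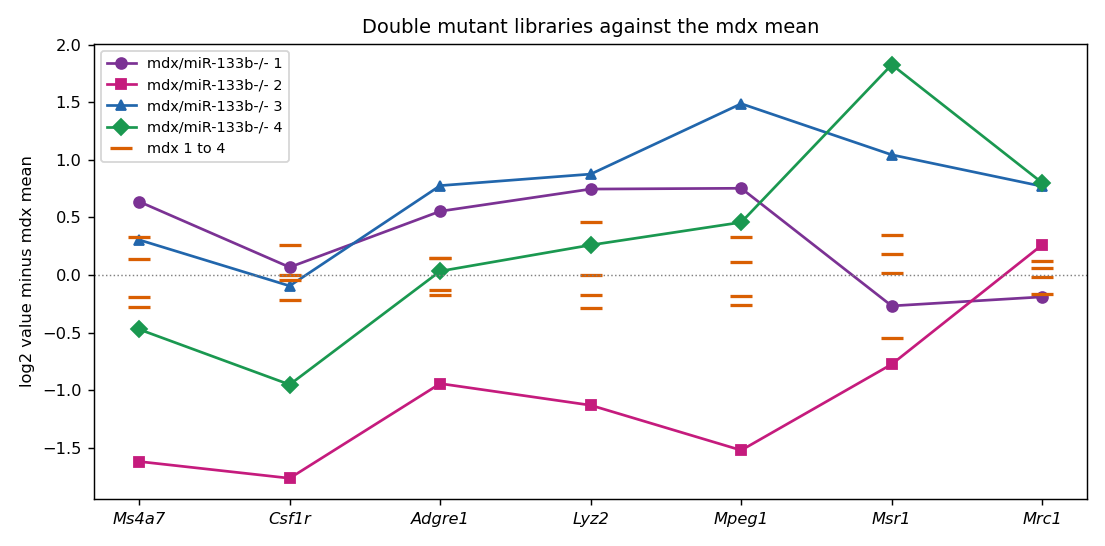
Log2 value of each member in the 4 mdx/miR-133b-/- libraries (lines) and the 4 mdx libraries (orange dashes), as the difference from the mdx mean. The second mdx/miR-133b-/- library lies below all mdx libraries for every member but Mrc1, and the fourth is low for Csf1r and high for Msr1.

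Of the 26 other macrophage genes, Lyn was the one that passed in mdx/miR-133b-/- against mdx, where 19.5% of all listed genes passed. It averaged 900 ± 249 scaled reads in mdx/miR-133b-/- and 476 ± 46.7 in mdx (SD, n = 4 each), a rise of 0.88 (adjusted p = 0.013). Lyn averaged 510 in miR-133b-/- and 441 in Control, so its place in the table rested on high mdx/miR-133b-/- values. Those libraries are used again in this comparison, so the rise of Lyn is partly set by the selection. The median of the 26 was -0.01, against -0.04 over all listed genes. F13a1 differed by 0.42 and did not pass.

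When both changes were set against Control, in mdx/miR-133b-/- against Control, all 7 members rose. The background was higher still, with 91.2% of the listed genes called and 54.3% called as higher, and this comparison shares its Control libraries with mdx against Control and its mdx/miR-133b-/- libraries with the table's selection. The rises were 3.88 for Mpeg1, 3.81 for Ms4a7, 2.94 for Msr1, 2.76 for Lyz2, 2.61 for Adgre1 and 1.504 for Csf1r, with adjusted p from 1.1e-05 for Adgre1 to 0.000758 for Csf1r. Every mdx/miR-133b-/- library lay above every Control library for these 6. The share of all listed genes without overlap was not counted in this comparison, so that separation is a description. Markers of other cells moved here too, and their part was not tested. Of the regenerating fibre genes 5 of the 6 listed rose, Myh3 by 4.84 (adjusted p = 7.2e-06), with Myog at 0.76 (adjusted p = 0.132), and the 3 fibro-adipogenic genes rose, Pdgfra by 1.59 (adjusted p = 1.6e-05). The regenerating fibre genes summed to 809 to 7465 scaled reads in mdx/miR-133b-/- and 203 to 304 in Control, and the fibro-adipogenic genes to 2478 to 3434 in mdx/miR-133b-/- and 1073 to 1867 in Control. Flt1 fell by 0.61 on the log2 scale (adjusted p = 0.00547), to 854 to 1650 scaled reads in mdx/miR-133b-/-, against 1687 to 2039 in Control. Ighm fell by 2.77 on the log2 scale (adjusted p = 0.000229), to 38.4 to 122 scaled reads in mdx/miR-133b-/-, against 184 to 1230 in Control. Mrc1 rose by 0.74 (SE 0.25, adjusted p = 0.00918), or 1.67-fold, while its groups overlapped in the first mdx/miR-133b-/- library. Its call was lost with relative log expression factors, at 0.34 (adjusted p = 0.202), beside a median over all genes of 0.33 with those factors and 0.73 with the authors' factors. The relative log expression factors came from the listed genes alone, most of which passed here, so they cannot settle whether Mrc1 rose. Between the mdx/miR-133b-/- and miR-133b-/- means, the contrast that chose the table's genes, the ratio was 20.3 for Mpeg1, 15.4 for Ms4a7, 8.06 for Adgre1, 6.90 for Msr1, 5.77 for Lyz2, 4.54 for Csf1r and 1.90 for Mrc1, given as a description.

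**Figure D5:**
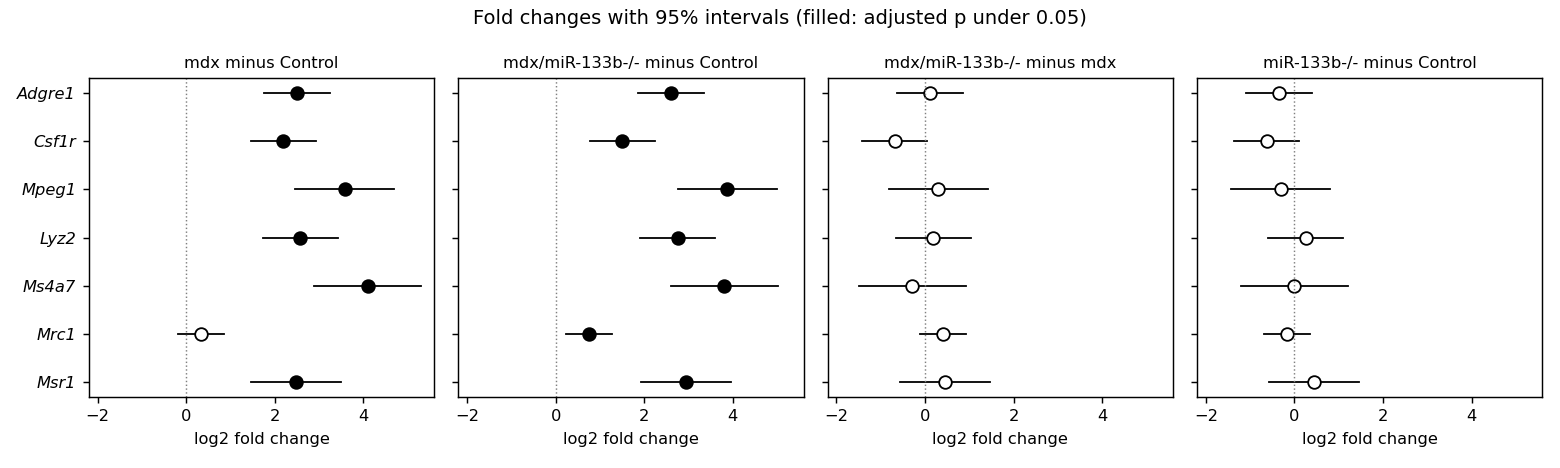
Log2 fold change of each member with its 95% interval in 4 comparisons from the limma fit; filled points have an adjusted p under 0.05. Filled points number 6 in mdx minus Control and 7 in mdx/miR-133b-/- minus Control, and none in the 2 comparisons for miR-133b loss.

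Whether the effect of miR-133b loss differed between dystrophic muscle and muscle with dystrophin was tested as an interaction in the same fit. The interaction uses both groups by which the table was selected. No member passed by limma, by limma-voom or at an unadjusted p under 0.05, and 0.963% of the listed genes did by limma. Values ran from -0.28 for Ms4a7 to 0.61 for Mpeg1, and Mrc1 was at 0.58 (SE 0.35, adjusted p = 0.353, 95% interval 0.899-fold to 2.48-fold).

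Across the 16 libraries the members other than Mrc1 varied together, and these libraries share the group differences and the scaling of each library. Pearson correlations of log2 values ran from 0.81 to 0.97 in the 15 pairs without Mrc1, and from 0.55 to 0.76 in the 6 pairs with it. With the group means taken out, the ranges were 0.44 to 0.91 without Mrc1 and -0.18 to 0.55 with it, the highest value with Mrc1 being that of Msr1. These are descriptions over 16 points that share 4 groups.

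The 5 genes most like the mean of the 6 members across the 16 libraries were Ctss (r = 0.99), Nckap1l, C3ar1, Cd48 and Ly86 (all r = 0.98). With group means taken out, Ctss again came first (r = 0.96), before Ly86, Cd48, Itgax and C3ar1 (0.91 to 0.94). The genes most like Mrc1 were others: Fndc3b (r = 0.90), Cep170, F13a1 and Sfxn1 (each 0.89) and Scn7a (0.88). With group means taken out they were Cep170 (0.83), Vcan (0.82), Gpm6b (0.81), Sfxn1 (0.79) and F13a1 (0.77). F13a1, the one gene in the table of the 22 on the resident-type list, stood in both sets for Mrc1 and in neither set for the other 6. A single gene cannot stand for resident cells, and F13a1 passed in mdx against Control where Mrc1 did not.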

How the data were processed

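Muscle RNA was isolated with the Aurum kit and treated with DNase, per the labels' protocols. The tools named are HISAT2 and HTSeq, and the build is GRCm38, per the submitters' processing notes. Whether counting used strand is not given in the sources. The authors deposited a signal value per gene and library: whole counts times 1 factor per library (0.459 to 1), since 100% of values came out whole within 0.001 read after division by the factor. Total depth is unknown, and reads in listed genes numbered 2356990 to 6000033. All 831 identifiers matched GENCODE M21.

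The members and all gene lists were chosen with earlier results of these data known. Log2(value + 1) was fitted with limma 3.58.1 (R 4.3.3), with 1 mean per group over 16 libraries, a variance trend, Benjamini-Hochberg adjustment over 831 genes and no filter. This fit used the deposited scaled values, and limma-voom was run on the recovered reads. Genes named were the 7 members, listed genes of the macrophage lists, and the 5 genes most correlated with Mrc1 or with the mean of the other 6, with and without group means. Beyond that rule, single genes of the other cell type lists and the muscle genes Ckm and Actn3 are given as checks of the tissue, and the neighbours of Ms4a7 were picked after values were seen. Intervals are 95% limits from the fit. With no statement that libraries are separate animals, a p-value covers the spread of these libraries alone, and that spread may be technical. No 2 libraries of a group looked like 1 counted again (chi-square per degree of freedom at least 38.6). On simulated data for mdx minus Control (831 genes, 5 runs), the share of changes recovered was 38.4% at 1.5-fold, 75.2% at 2-fold, 91.6% at 3-fold and 96.8% at 5-fold, and 5.41% of calls were false. There a minority of genes changed, in both directions, and genes were drawn independently with the same spread in every group. In the data 66.2% of genes passed, so 5.41% is not the false share of the calls reported here. Alternatives covered scaling, a minimum mean of 100, pseudocounts of 0.5 and 10, a fit with no trend, 2-group fits, a replicate block, limma-voom, leaving out each library, and columns assigned by description.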

Additional observations from a re-analysis of the deposited data

Results flagged for a closer look

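In the miR-133b-/- group, Mpeg1 had 1 library apart from the other 3: 145 scaled reads in miR-133b-/- 4, against 39.7 to 53.5 in the others. The gap to the nearest library was 0.869 of the group's whole range, above the 95% critical value of Dixon's test for 4 samples. On the log2 scale used in the fits it was 0.772, below that value. This was 1 of 28 groups of 4 looked at, and chance flags about 1 in 20. The same library was also the highest of its group for Csf1r, Lyz2, Ms4a7 and Msr1. Without it the Mpeg1 difference from Control was -0.72 and did not pass.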

How the results depend on the processing

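Apart from the assignment of columns, 857 values of single members kept their side of the threshold, and no called value changed direction. The 1 exception was Mrc1 in mdx/miR-133b-/- against Control with relative log expression factors, at 0.34 (adjusted p = 0.202, and 0.00869 to 0.202 over the alternatives that keep all libraries). With columns assigned by description, 0 members and 0 of all genes were called in every comparison. Members then differed in mdx against Control by -0.41 (Adgre1), -0.20 (Csf1r), -0.29 (Mpeg1), -0.50 (Lyz2), -0.29 (Ms4a7), 0.31 (Mrc1) and 0.15 (Msr1). In mdx/miR-133b-/- against Control they differed by -0.39 (Adgre1), -0.20 (Csf1r), -0.23 (Mpeg1), -0.24 (Lyz2), -0.76 (Ms4a7), 0.43 (Mrc1) and 0.59 (Msr1). The cause was not tested.

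Leaving out each library in turn gave 6 members called in mdx against Control, 7 in mdx/miR-133b-/- against Control and 0 in the other comparisons. Over all genes, the same gave 474 to 578 calls in mdx against Control, 718 to 771 in mdx/miR-133b-/- against Control, 0 in miR-133b-/- against Control, 49 (without mdx/miR-133b-/- 4) to 197 in mdx/miR-133b-/- against mdx, where 162 were called with all libraries, and 7 to 110 (without miR-133b-/- 2) in the interaction, where 8 were. For the interaction, relative log expression factors gave 14 and a minimum mean of 100 gave 4. Ms4a7 and Msr1 fell below that minimum. Of 24 same-numbered pairs, 2 had a correlation over 0.1, so the numbers do not pair the samples; with a replicate block 6 members were called in mdx against Control, 0, 0 and 0 in the miR-133b comparisons and interaction, and 7 in mdx/miR-133b-/- against Control, and all genes gave 541, 0, 120, 7 and 749. The planned edgeR and DESeq2 fits were not run; limma-voom was the fit on recovered reads. The SE of a difference between 2 groups of 4 libraries ran from 0.25 for Mrc1 to 0.58 for Ms4a7 on the log2 scale, which limits what these libraries can show.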
